A study of Mus musculus with 162 samples.

Results

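The genes described here are the axon guidance genes of 3 ligand and receptor systems, the ephrins with their Eph receptors, the Slits with their Robo receptors, and the netrins with Dcc, Neo1 and the Unc5 receptors. They were chosen by symbol alone, and 41 of the 22800 genes of the authors' normalized table matched: 9 EphA receptors, 5 EphB receptors, 5 ephrin-A and 3 ephrin-B ligands, 3 Slits, 4 Robos, 4 secreted netrins, 2 netrin-G proteins, Dcc and Neo1, and 4 Unc5 receptors. RNA of 162 single cells of mouse embryos aged embryonic day 17.5 to 18.5 was sequenced after a patch pipette had taken up their contents, and 148 cells passed the submitters' quality control. Embryos carried 1 of 3 Cre drivers, Htr3a Cre, Lhx6 Cre or Nex Cre; no other allele or agent is given in the labels, and no label names an animal, a litter or a brain region. Htr3a is known from interneurons of the caudal ganglionic eminence and from other cell types. Lhx6 is known from interneurons of the medial ganglionic eminence, and Nex (Neurod6) from cortical projection neurons.

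The submitters gave each passed cell 1 of 9 type labels. MGE-derived 1 held 18 cells (11 of the Htr3a and 7 of the Lhx6 line), MGE-derived 2 held 24 (17 and 7), CGE-derived 11 (all Htr3a) and GABAergic 4 (3 Htr3a and 1 Lhx6). Glutamatergic 1 held 33 cells (23 Htr3a and 10 Nex), Glutamatergic 2 held 13 (12 Htr3a and 1 Nex), Cajal Retzius 12 (all Htr3a), VZ-derived 11 (8 Htr3a, 1 Lhx6 and 2 Nex) and Undefined 22 (17 Htr3a, 1 Lhx6 and 4 Nex). MGE and CGE are the medial and caudal ganglionic eminences, the embryonic sources of most cortical interneurons; VZ is commonly the ventricular zone, which the labels do not spell out.

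Guidance genes steer growing axons and migrating neurons. Ephrins sit on cell surfaces, ephrin-A ligands by a lipid anchor and ephrin-B ligands by a membrane-spanning stretch, and they signal on contact to Eph receptor tyrosine kinases, usually by repulsion, while also signalling back into the cell that carries them. Slits are large secreted proteins that repel Robo-bearing axons and migrating interneurons. Secreted netrins attract through Dcc and repel where an Unc5 receptor takes part; Neo1 is a Dcc relative that also binds repulsive guidance molecules, and netrin-G proteins are membrane-anchored relatives that bind other partners. In the developing cortex the same systems are known to act on layer formation, on callosal and subcortical projections, and on the tangential migration of interneurons.

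The promoters of 6 members are printed because the results below return to these genes often; they were chosen after their values were seen. Epha4, Epha5, Ephb1 and Unc5c were higher in glutamatergic cells than in GABAergic and in Cajal Retzius cells, and Ephb6 and Unc5b were highest in Cajal Retzius cells. Each sequence is the 250 bases before the start of the gene as annotated in RefSeq, read 5′ to 3′ on the gene's own strand, with build GRCm38.p6. An entry was found for 36 of the 41 members. In GENCODE M21, the source of the exon lengths, Unc5c starts at 141465216, so its window lies inside the gene. Ephb6 starts there at 41605482, so the end of its window lies inside the gene. Capitals mark the GC box, read GGGCGG on one strand with CCGCCC on the other, and the CCAAT box, read CCAAT with its complement ATTGG; both are common promoter elements.
Epha4, chr1:77515089-77515338, minus strand: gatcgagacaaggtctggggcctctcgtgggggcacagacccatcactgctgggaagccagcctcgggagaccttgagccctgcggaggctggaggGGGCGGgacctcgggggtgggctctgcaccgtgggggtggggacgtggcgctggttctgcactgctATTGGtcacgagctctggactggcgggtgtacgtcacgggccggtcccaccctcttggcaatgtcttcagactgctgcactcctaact
Epha5, chr5:84417383-84417632, minus strand: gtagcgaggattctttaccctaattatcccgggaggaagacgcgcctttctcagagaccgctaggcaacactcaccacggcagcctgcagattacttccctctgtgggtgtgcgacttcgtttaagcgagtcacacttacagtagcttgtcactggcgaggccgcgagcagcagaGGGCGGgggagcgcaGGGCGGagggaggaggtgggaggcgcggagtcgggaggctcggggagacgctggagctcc
Ephb1, chr9:102354694-102354943, minus strand: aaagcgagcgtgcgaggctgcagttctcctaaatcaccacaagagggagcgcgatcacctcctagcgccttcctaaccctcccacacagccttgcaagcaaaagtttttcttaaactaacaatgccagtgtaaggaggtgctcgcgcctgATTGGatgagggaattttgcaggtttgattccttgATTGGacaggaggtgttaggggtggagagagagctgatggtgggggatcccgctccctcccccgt
Unc5c, chr3:141465314-141465563, plus strand: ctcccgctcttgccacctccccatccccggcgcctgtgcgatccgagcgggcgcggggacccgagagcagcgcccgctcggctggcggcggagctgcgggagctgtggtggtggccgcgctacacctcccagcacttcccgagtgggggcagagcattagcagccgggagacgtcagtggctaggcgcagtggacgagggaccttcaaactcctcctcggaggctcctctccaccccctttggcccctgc
Ephb6, chr6:41605261-41605510, plus strand: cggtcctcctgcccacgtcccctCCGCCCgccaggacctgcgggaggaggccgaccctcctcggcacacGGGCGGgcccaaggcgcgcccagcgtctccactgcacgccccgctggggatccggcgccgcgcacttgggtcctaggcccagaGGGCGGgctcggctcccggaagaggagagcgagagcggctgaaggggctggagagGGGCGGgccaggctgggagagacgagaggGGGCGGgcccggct
Unc5b, chr10:60831582-60831831, minus strand: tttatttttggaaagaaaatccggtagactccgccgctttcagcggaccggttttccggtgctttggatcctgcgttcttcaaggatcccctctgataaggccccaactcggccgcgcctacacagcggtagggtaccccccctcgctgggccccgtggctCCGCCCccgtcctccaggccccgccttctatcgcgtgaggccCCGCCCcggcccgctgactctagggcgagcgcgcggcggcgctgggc

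Ephb6 held 5 GC boxes, Epha5 and Unc5b 2 each and Epha4 1, against at least 1 in 32.7% of the 32851 promoter windows of this length. Ephb1 held 2 CCAAT boxes and Epha4 held 1, against 33.8% of all windows with at least 1. Guanine and cytosine made up 54.0% of the Ephb1 window and 76.8% of that of Ephb6, the lowest and highest of the 6. None of 3 other motifs, searched on both strands, was in these 6 windows: CAGATG, found in 14.4% of all windows, its relative CAGCTG, found in 13% of them, and AGGTGTGA, found in 1.12%. These matches describe the sequence only.

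Levels are given in CPM, a cell's reads of a gene scaled to a common total of reads counted per cell. A group's level is the CPM of its summed counts with an exact Poisson 95% interval where one is printed, and 2 groups are compared by log2(CPM + 1) averaged over each group's cells, first group minus second. The total per passed cell ran from 1710224 to 24836041 counts (median 9463972.5), with 2066 to 14811 genes detected (median 5364). Because no label names an animal, each label counts as 1 sample: there is no test. Intervals of levels cover counting error of reads, intervals of shares treat cells as independent draws, and neither covers the spread between animals. Driver line, animals and batch cannot be told apart, and the type labels may rest on expression in these same cells. A member differed past both 2-fold conditions, below simply "past 2-fold", when its log2 difference was at least 1 in size and its summed counts differed at least 2-fold in the same direction, among genes with a count in at least 10% and at least 3 cells of either group. The share of all genes past 2-fold is given for these conditions only. Numbers of members under other settings stand without that share and do not set members against other genes.

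The labels were checked against marker genes. Lhx6 was counted in 18 of 18 MGE-derived 1 and 24 of 24 MGE-derived 2 cells, Adarb2 in 11 of 11 CGE-derived cells, Trp73 in 12 of 12 Cajal Retzius cells, and Neurod6 in 27 of 33 Glutamatergic 1 and 13 of 13 Glutamatergic 2 cells. Other markers of these lists were less complete. Sox6 was counted in 7 and Nxph1 in 10 of 18 MGE-derived 1 cells. Prox1 was counted in 7 of 11 CGE-derived cells and Slc17a6 in 9 of 33 Glutamatergic 1 cells. Neurod6 was also counted in 10 of 24 MGE-derived 2 cells (149 CPM). In the GABAergic label, Gad1 and Gad2 were counted in 4 of 4 cells and Slc32a1 in 2. The VZ-derived label went against a reading as progenitors: all 8 progenitor markers had a count somewhere, but Sox2 was counted in 1 of 11 cells and Vim in 3 of 11, and the summed level of the list ran from 0 to 1002 CPM with a median of 0. The same 11 cells held Neurod2 in 11 and Neurod6 in 10, so they are called by their label with no cell type attached. Markers of another class were carried by 15 cells. Of these, 3 were Cajal Retzius cells, a label that commonly held Slc17a6 (12 of 12) and Tbr1 (11 of 12) of the glutamatergic list. At least 3 microglia markers at 10 counts or more were carried by 24 cells.

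Of the 41 members, 37 were detected well enough to be measured in at least 1 of the 8 typed labels. The other 4, Epha2, Ephb4, Robo4 and Ntn4, had a count in 4 to 7 of the 148 cells. A passed cell held 3 to 38 members with a median of 13. That number went with the number of genes detected in a cell (Pearson's r = 0.84 across 148 cells, which share the way depth and detection were measured) and hardly with its total counts (r = 0.05). Glutamatergic 2 cells held a median of 18 members and 7586 genes, and MGE-derived 1 cells a median of 8.50 members and 4563.5 genes.

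**Figure D1:**
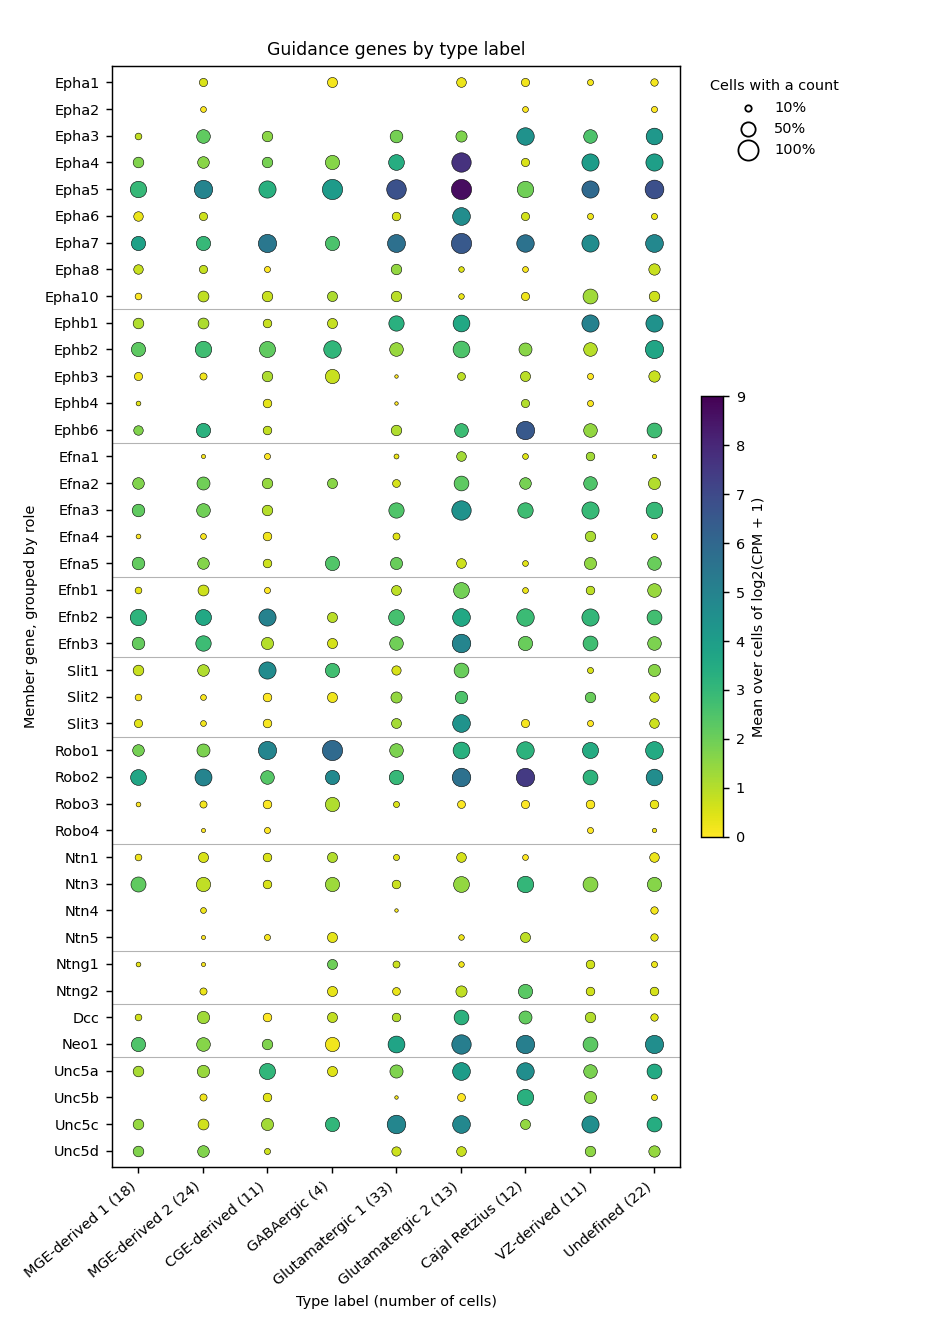
Each of the 41 genes (rows, grouped by role) in each of the 9 type labels (columns, with the number of cells). The dot's area is the percentage of cells with a count and its colour the average log2(CPM + 1) of the cells; Epha5, Epha7 and Robo2 are broad, while Unc5b and Ntng2 stand out in the Cajal Retzius column.

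Compared per kilobase of exon, levels of different genes can stand side by side. By summed counts, each label was led by an Eph receptor except GABAergic. There Robo2 led at 24.4 CPM per kilobase, with a count in 2 of the 4 cells. Epha7, a receptor known from cortical area boundaries, led in Glutamatergic 1 (30.4) and CGE-derived cells (25.9, beside 25.8 for Slit1). Epha5 led in Glutamatergic 2 cells at 53.4 CPM per kilobase, ahead of Epha4 at 45.3 and Epha6 at 20.3. Ephb6, an Eph receptor whose kinase domain lacks catalytic activity, led in Cajal Retzius cells at 90.4 CPM per kilobase, and also in MGE-derived 1 (19.5) and MGE-derived 2 cells (23.7). Ephb1 led in VZ-derived cells at 23.7 CPM per kilobase and Epha5 among Undefined cells at 28.5.

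The 57 cells labelled GABAergic, CGE-derived, MGE-derived 1 or MGE-derived 2, called the GABAergic class here, were compared with the 46 cells of both Glutamatergic labels. The EphA receptors Epha4, Epha5 and Epha6 were lower in the GABAergic class, as were Ephb1, Neo1, Slit2, Slit3 and Unc5c, while Epha3, Epha7, Epha8 and Epha10 were measured and did not pass. Of 33 members measured, 8 were lower past 2-fold and 0 were higher, where 5.64% of all 13140 genes measured were lower and 3.94% higher. The members' median difference was -0.35 against -0.02 over all genes.

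Among the Eph receptors, Epha5 per cell ran from 0 to 3498 CPM in glutamatergic cells (median 254) and from 0 to 1020 CPM in the GABAergic class (median 19.8). Nearly every glutamatergic cell had it, 44 of 46, and so did 44 of 57 cells of the GABAergic class, so the groups overlapped and the difference was one of level more than of presence. Its summed level was 570 CPM (interval 567 to 572) against 126 CPM (125 to 127), a log2 difference of -3.37 with an SD between cells of 2.99 and 3.66. Epha4, a receptor that binds both ephrin classes, ran from 0 to 1407 CPM (median 67.1) and from 0 to 605 CPM (median 0), and was counted in 32 of 46 and 18 of 57 cells (log2 difference -2.93). Ephb1, known for routing retinal axons and for cortical projections, was counted in 28 of 46 glutamatergic and 15 of 57 GABAergic class cells, at 97.8 and 16.8 CPM (log2 difference -2.38).

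Unc5c, a repulsive netrin receptor, showed the largest difference of the 33 members. Per cell it ran from 0 to 677 CPM in the glutamatergic cells (median 32.1) and from 0 to 261 CPM in the GABAergic class (median 0). It was counted in 38 of 46 cells (82.6%, exact binomial 95% interval 68.6 to 92.2) against 18 of 57 (31.6%, 19.9 to 45.2), at 163 CPM against 13.6, a log2 difference of -3.67. Neo1 stood at 100 CPM in 35 of 46 glutamatergic cells and at 39.8 CPM in 25 of 57 cells of the GABAergic class (log2 difference -2.35). Within the Htr3a line its summed levels were 72.3 and 39.0 CPM, under 2-fold apart, while the log2 difference was -2.09.

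The Slits split by member. Slit2 and Slit3 were far lower in the GABAergic class: Slit2 stood at 28.1 CPM in 15 of 46 cells and at 0.13 CPM in 7 of 57, and Slit3 at 29.8 CPM in 18 of 46 and at 0.636 CPM in 7 of 57. Their log2 differences were -1.67 and -1.87, and that of Epha6 was -1.32; with a pseudocount of 10 CPM all 3 were smaller than 1 in size. Slit1 went the other way without passing the condition on the mean, at 44.0 CPM in the GABAergic class and 15.3 CPM in glutamatergic cells, with a log2 difference of 0.83. Robo1 and Robo2, the main Slit receptors of the cortex, stood at 93.9 and 172 CPM in the GABAergic class and at 50.1 and 115 CPM in glutamatergic cells, and neither passed.

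**Figure D2:**
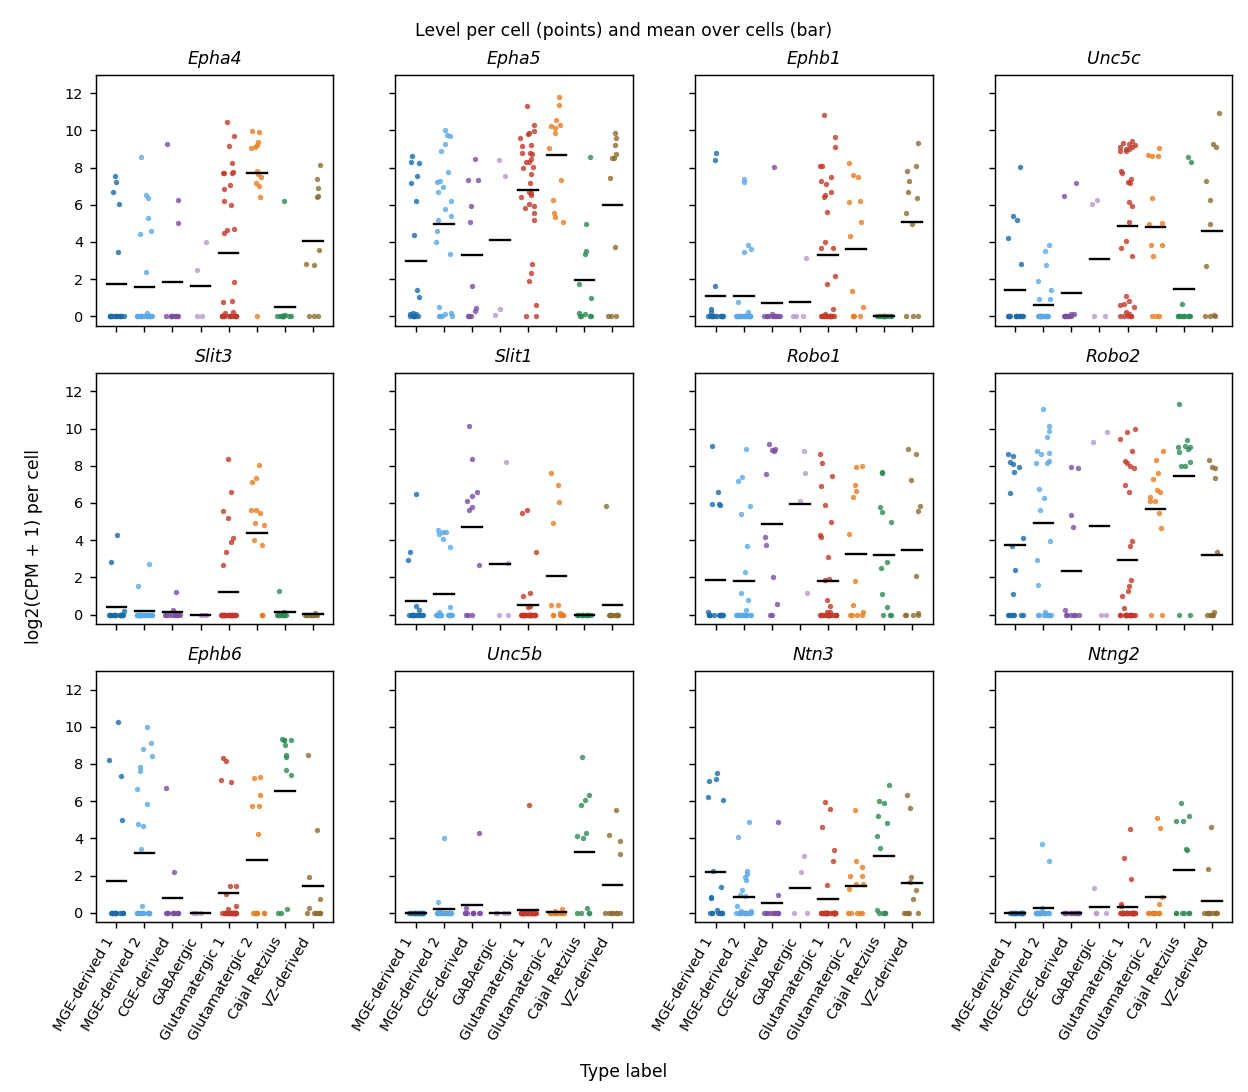
Level of 12 members in each cell, as log2(CPM + 1) on the vertical axis, by type label on the horizontal axis; points are cells and bars the mean over cells. Ephb1 and Slit1 lie at 0 in all 12 Cajal Retzius cells, while Ephb6, Robo2 and Unc5b are at their highest means there, and Slit1 is highest in CGE-derived cells.

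RNA of microglia marker genes was unequal between these groups: all 8 markers had counts in both, at a summed level per cell of 0 to 10870 CPM in the GABAergic class (group level 857 CPM) and 0 to 4029 CPM in glutamatergic cells (314 CPM). Without the cells that carried at least 3 of them, the 8 differences ran from -1.29 for Epha6 to -3.69 for Unc5c, and 10 members were past 2-fold. Of the 34 other genes of these pathways, 4 were higher past 2-fold in the GABAergic class and 4 lower, with a median difference of -0.27. Rgmb, a repulsive guidance molecule that binds Neo1, led those higher (160 against 32.2 CPM, log2 difference 2.30). Nell2, a secreted Robo3 ligand, stood at 55.2 against 378 CPM (log2 difference -3.90), and Ablim1, an actin-binding protein, at 58.0 against 180 CPM (-3.54). Ngef, an exchange factor that acts below Eph receptors, differed by -2.05.

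Within the GABAergic class, the 42 MGE-derived cells differed from the 11 CGE-derived cells in which Robo and which ligand they held. Robo2, Ephb6, Efnb3 and Efna3 were higher in MGE-derived cells, and Slit1, Robo1, Epha7 and Unc5a were higher in CGE-derived cells. Of 28 members measured, 4 were higher past 2-fold in MGE-derived cells, against 12.4% of the 12380 genes measured, and 4 were lower, against 5.95%. The members' median difference was 0.35 and that of all genes 0.25. On the authors' own scaling the split was 9 higher and 5 lower, with no share over all genes to set beside it.

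Slit1, the Slit known from the developing forebrain, ran from 0 to 1145 CPM over the CGE-derived cells (median 54.7) and from 0 to 88.6 CPM over the MGE-derived cells (median 0). It was counted in 8 of 11 cells (72.7%, interval 39.0 to 94.0) against 13 of 42. The summed levels were 153 and 4.31 CPM, a log2 difference of -3.75. A single cell held 66.7% of the CGE-derived counts, and without it the level was 55.8 CPM. Robo1 was counted in 9 of 11 CGE-derived cells, from 0 to 580 CPM (median 17.1), and in 16 of 42 MGE-derived cells, from 0 to 535 CPM (median 0). Its levels were 212 and 42.2 CPM (log2 difference -3.07).

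Robo2 went the other way. It ran from 0 to 2089 CPM over MGE-derived cells (median 15.3) with a count in 28 of 42, and from 0 to 244 CPM over CGE-derived cells (median 0) with a count in 5 of 11. Summed levels were 175 and 44.0 CPM, a log2 difference of 2.04. Of the CGE-derived cells, 5 held Robo1 without Robo2, 4 held both and 1 held Robo2 alone. Of the MGE-derived 2 cells, 0 held Robo1 alone, 10 held both and 7 held Robo2 alone; among MGE-derived 1 cells these numbers were 2, 4 and 7. Slit1 and Robo1 were counted together in 6 of 11 CGE-derived cells, Slit1 without Robo1 in 2 and Robo1 without Slit1 in 3. With Slit1 in 8 and Robo1 in 9 of these 11 cells, 6 is the smallest overlap possible. It therefore does not show that ligand and receptor go together.

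**Figure D3:**
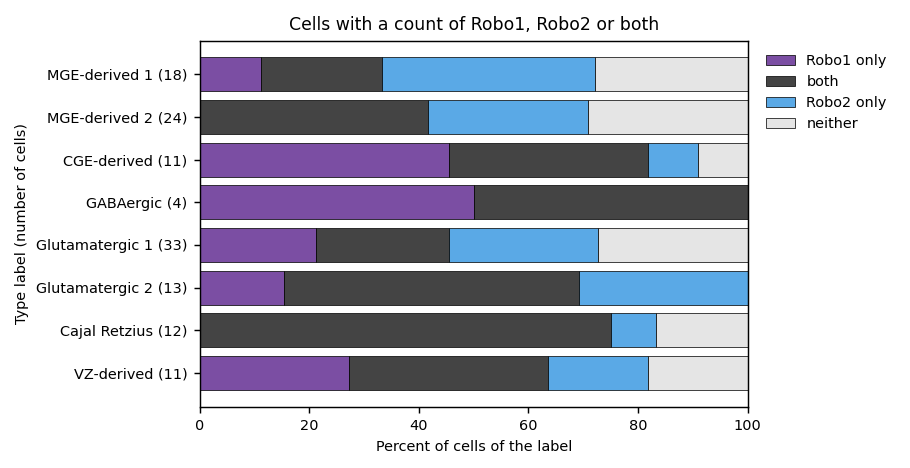
Percentage of cells (horizontal axis) of 8 type labels (vertical axis, with the number of cells) that held a count of Robo1 only, of both, of Robo2 only or of neither. Robo1 without Robo2 was seen in 5 of 11 CGE-derived cells and in 0 of 12 Cajal Retzius cells.

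Ephb6 stood at 83.0 CPM in 16 of 42 MGE-derived cells and at 8.96 CPM in 2 of 11 CGE-derived cells (log2 difference 1.77), and the ephrin-B ligand Efnb3 at 39.9 CPM in 21 and 9.40 CPM in 4 (1.55). The ephrin-A ligand Efna3 was at the edge of the condition (20.5 against 8.37 CPM, log2 difference 1.04). It fell short of it within the Htr3a line (0.63) and without the cells with microglia markers (0.97). With a pseudocount of 10 CPM Efnb3 (0.84) and Efna3 (0.50) both fell short. Efna3 also shares 14.1% of its exon bases with a gene on the other strand, and whether the counting used strand is not given in the sources used here. Epha7 stood at 98.9 and 256 CPM (log2 difference -2.07; -0.97 without cells that carried markers of another class), and Unc5a, a netrin receptor, at 18.1 and 45.5 CPM (-1.77). Microglia marker RNA stood at 975 CPM in MGE-derived cells (0 to 10870 CPM per cell, all 8 markers) and at 17.3 CPM in CGE-derived cells (0 to 109 CPM, 6 of 8, with P2ry12 and Aif1 at 0). Without the cells that carried at least 3 of these markers, Slit1 (-3.85), Robo1 (-3.54) and Robo2 (3.02) differed by as much or more. Of the 34 other pathway genes, 1 was higher, the Rac regulator Chn1 (1.34), and 5 were lower, among them Rasa1 (-2.14), the exchange factor Trio (-1.93) and Gpc1 (-1.74), a Slit-binding proteoglycan. That split rested on single cells: with each gene's highest cell of each group left out, 8 were higher and 1, Trio (-1.65), was lower.

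Cajal Retzius cells, early neurons of the cortical surface, were compared with the 46 cells of both Glutamatergic labels, and 14 members were past 2-fold. Ephb6, Robo2, Unc5b, Ntn3 and Ntng2 were higher, and Epha4, Epha5, Epha6, Epha8, Ephb1, Unc5c, Slit2, Slit3 and Efna5 were lower. Of 35 members measured, 5 were higher, against 12.2% of 12195 genes, and 9 were lower, against 7.97%. The members' median difference was -0.36, while that of all genes was 0.54. Cajal Retzius cells had a median of 6715 genes detected and glutamatergic cells 5621.5; the part of this in the differences was not tested.

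Ephb6 ran from 0 to 644 CPM over the 12 Cajal Retzius cells with a median of 341, and from 0 to 325 CPM over the glutamatergic cells with a median of 0. It was counted in 10 of 12 cells (83.3%, interval 51.6 to 97.9) against 15 of 46 (32.6%, 19.5 to 48.0). The summed levels were 341 CPM (338 to 344) and 35.4 CPM (34.8 to 35.9), a log2 difference of 4.97 with an SD between cells of 3.95 and 2.83. Robo2 ran from 0 to 2513 CPM (median 445) against 0 to 1011 CPM (median 7.18), at 457 and 115 CPM, a log2 difference of 3.73. It was the higher of Robo1 and Robo2 in each of the 10 Cajal Retzius cells that had either, 9 of which held both. No Cajal Retzius cell had a count of Slit1, so in these 12 cells Robo2 was found without that ligand.

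The netrin receptors and ligands differed by member. Unc5b, known mainly from blood vessels, was counted in 8 of 12 Cajal Retzius cells (0 to 328 CPM, median 15.8) and in 3 of 46 glutamatergic cells (0 to 53.6 CPM), at 38.7 and 1.39 CPM (log2 difference 3.14). In the same cells 3 of 6 endothelial and mural markers, Cldn5, Flt1 and Kdr, were at 0. Rgs5 of that list was counted in 8 of 12 cells at 22.55 CPM, and Pecam1 and Pdgfrb in 2 each. The list's summed level was 0 to 78.4 CPM per cell, with a group level of 24.1 CPM made up mostly of Rgs5. In glutamatergic cells it was 0 to 5.16 CPM (0.126 CPM), with Flt1, Kdr and Pdgfrb at 0. The part of these transcripts was not tested. Unc5c ran opposite to Unc5b: 3 of 12 cells against 38 of 46, at 58.9 and 163 CPM, with a log2 difference of -3.38 (18.7 CPM without the highest Cajal Retzius cell). Ntn3, a secreted netrin, stood at 28.1 CPM in 8 of 12 cells and 4.86 CPM in 14 of 46 (2.11), and Ntng2 at 12.5 CPM in 6 and 2.47 CPM in 9 (1.86). Ntng2 shares 14% of its exon bases with another gene on its own strand.

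Among the receptors that were lower, Ephb1 had 0 counts in all 12 Cajal Retzius cells and 97.8 CPM in glutamatergic cells. Slit2 also had 0 counts, against 28.1 CPM from the 15 glutamatergic cells with a count. With a floor of 3 counts over the group, these sums were at least 5080-fold and 1460-fold lower. That floor covers counting error of reads in these 12 cells only. The folds are no lower limit for the cell type, because cells differ in whether they hold a count. Epha5 was counted in 8 of 12 cells, but from 0 to 385 CPM with a median of 0.547, against a median of 254 (log2 difference -5.37). Epha4 was counted in 2 of 12 cells, at 6.11 CPM against 214 (-4.09), and 99.9% of those counts came from 1 cell. Slit3 (-1.98), Efna5 (-1.25), Epha8 (-1.08) and Epha6 (-1.06) made up the rest. With a pseudocount of 10 CPM Slit3 (-0.94), Efna5 (-0.61), Epha8 (-0.55) and Epha6 (-0.59) fell short of 2-fold. So did Slit2 (-0.90) and, of the higher members, Ntng2 (0.76). Epha8 fell short of 2-fold within the Htr3a line (-0.45) and, with a log2 difference just under 1 in size, when each group's highest cell was left out, and Efna5 within that line (-0.94).

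Leaving out the 3 Cajal Retzius cells and the other cells that carried markers of another class gave 14 members too, with Ephb6 at 6.16 and Robo2 at 5.12, while Epha6 fell short (-0.89). For Cajal Retzius cells the rule was at least 3 markers of the glutamatergic or of the GABAergic list. Slc17a6 and Tbr1 of the glutamatergic list were counted in 12 and 11 of the 12 cells, so the rule is no clean mark of another class for this label. Of the 34 other pathway genes, 33 were measured, 4 higher and 11 lower past 2-fold, with a median difference of -0.22. Gpc1 had the largest difference upward, with a count in 12 of 12 cells and 854 CPM against 90.7 (log2 difference 6.14), followed by Rgmb, in 12 of 12 cells at 269 against 32.2 CPM (5.56). Nell2 stood at 1.26 against 378 CPM (-6.44) and Kalrn, an exchange factor of the Trio family, at 0.892 against 133 CPM (-3.69).

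**Figure D4:**
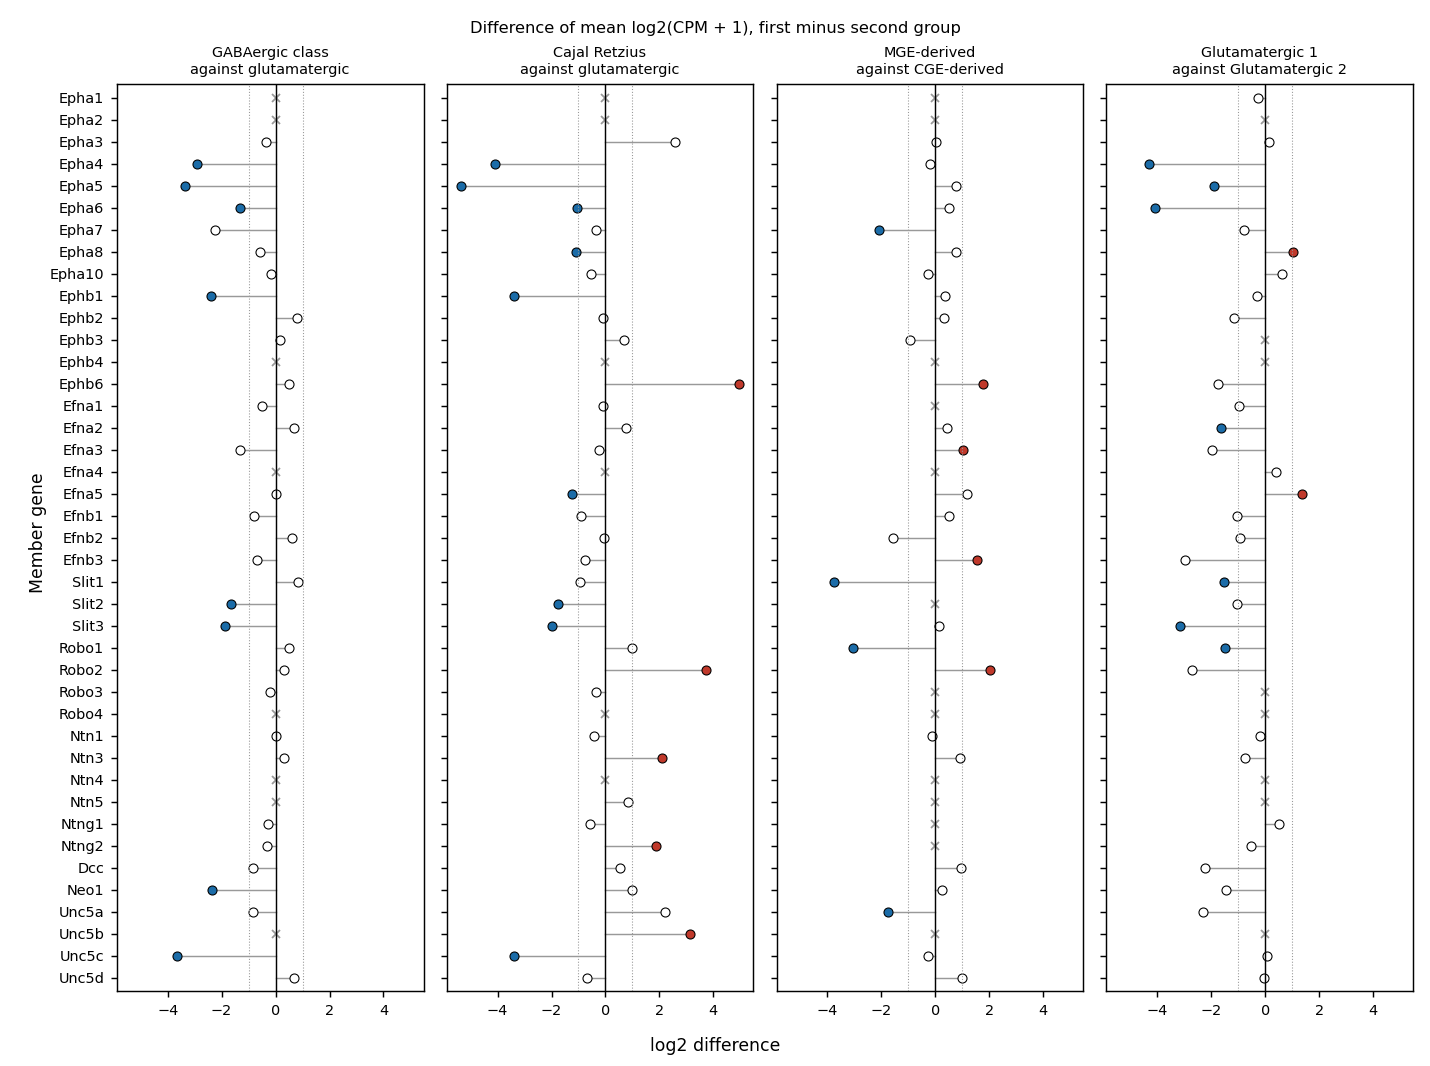
Cell-averaged log2(CPM + 1) of the first group minus that of the second (horizontal axis), for each member (vertical axis) in 4 comparisons. Red and blue points are higher and lower past both 2-fold conditions, open points are measured but not past them, crosses mark members not measured, and dotted lines stand at -1 and 1; Epha5 at -5.37 and Ephb6 at 4.97 are the extremes, both in Cajal Retzius cells.

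The VZ-derived cells were compared with the same 46 glutamatergic cells. Of 34 measured, 2 were higher past 2-fold, against 6.08% of 11838 genes, and 4 were lower, against 10.6%; the members' median difference was -0.14 and that of all genes -0.13. The split on the authors' scaling was 4 and 5, again without a share over all genes. Epha4, Epha5, Ephb1 and Unc5c, low in the other 2 comparisons with these cells, stood at 83.1, 315, 166 and 256 CPM in the VZ-derived cells and at 214, 570, 97.8 and 163 CPM in the glutamatergic ones, and none of the 4 was past 2-fold. Ephb1 was counted in 8 of 11 VZ-derived cells, from 0 to 629 CPM with a median of 80.9, the highest median of any label.

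Slit3 had the largest difference of the lower members, with a count in 1 of 11 VZ-derived cells (0.00889 CPM) and in 18 of 46 glutamatergic cells (29.8 CPM), a log2 difference of -2.09. Epha6 differed by -1.45, and Epha8, counted in 0 of 11 VZ-derived and 10 of 46 glutamatergic cells (17.6 CPM, or 8.91 CPM without the highest cell), by -1.16. Neo1 stood at 31.2 against 100 CPM (-1.90) and Efna2, an ephrin-A ligand, at 47.6 against 12.5 CPM (1.43). Unc5b was counted in 4 of 11 and 3 of 46 cells, at 5.77 and 1.39 CPM (1.39). With a pseudocount of 10 CPM all but Neo1 fell short of 2-fold: Slit3 (-0.96), Epha6 (-0.83), Epha8 (-0.57), Efna2 (0.82) and Unc5b (0.48). Within the Htr3a line Neo1 (-0.63), Efna2 (0.41) and Epha8 (-0.53) fell short of 2-fold. Unc5b did so without cells that carried microglia markers (0.94) and without cells that carried markers of another class (0.98). Cajal Retzius markers stood at 823 CPM in the VZ-derived cells (0 to 7696 CPM per cell, all 5 markers) and at 66.8 CPM in glutamatergic cells (0 to 439 CPM, all 5). Epha8 without the highest glutamatergic cell, and Efna2 among cells with at least 4000 genes (47.2 against 15.2 CPM), had log2 differences just under 1 in size. Of the other 34 pathway genes 1 was higher, Rgmb (1.35), and 1 lower, Kalrn (-1.59); without each gene's highest cells 1 was higher and 3 lower.

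Between the 2 glutamatergic labels, Epha4, Epha5 and Epha6 were lower in Glutamatergic 1 than in Glutamatergic 2, while Epha8 was higher and Epha7 stood at 300.1 against 147 CPM without passing (log2 difference -0.80). Of 33 members measured, 2 were higher past 2-fold in Glutamatergic 1, against 1.16% of 11773 genes, and 7 were lower, against 15% of them. Glutamatergic 1 cells had a median of 4955 genes and Glutamatergic 2 cells 7586, and the median difference of all genes was -1.05, beside -1.03 for the members, so a member near -1 stood where most genes did. Read against that shift, Epha4 (-4.31), Epha6 (-4.08) and Slit3 (-3.16) went far below it. Efna5 (1.37) and Epha8 (1.02) went above it.

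Epha4 ran from 0 to 1014 CPM over the 13 Glutamatergic 2 cells with a median of 226, and from 0 to 1407 CPM over the 33 Glutamatergic 1 cells with a median of 0.766. It was counted in 12 of 13 cells against 20 of 33, at 364 and 133 CPM. Epha6 was counted in 10 of 13 cells (76.9%, interval 46.2 to 95.0) against 6 of 33 (18.2%, 6.98 to 35.5), at 107 and 14.1 CPM, and the other labels held at most 13.8 CPM. Slit3 was counted in 10 of 13 against 8 of 33 cells, at 48.3 and 19.8 CPM. Epha5 was nearly universal in both, 13 of 13 and 31 of 33 cells, at 894 and 394 CPM (-1.90). Efna5, a ligand of these EphA receptors, was counted in 3 of 13 Glutamatergic 2 and 12 of 33 Glutamatergic 1 cells, at 2.69 and 24 CPM.

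The other lower members were Efna2 (-1.65), Slit1 (-1.52) and Robo1 (-1.49), closer to the shift of all genes. With a pseudocount of 10 CPM Efna2 (-0.69), Slit1 (-0.82) and Robo1 (-0.83) fell short of 2-fold. So did both higher members, Efna5 (0.77) and Epha8 (0.52). Among cells with at least 4000 genes, Efna2 (11.3 against 20.4 CPM), Robo1 (log2 difference -0.83) and Slit3 (27.2 against 48.3 CPM, log2 difference -2.56) fell short of 2-fold in the mean or the summed counts. Within the Htr3a line Efna5 (0.93), Epha8 (0.81) and Efna2 (10.9 against 21.9 CPM, log2 difference -1.73) fell short of 2-fold. Without the cells that carried microglia markers Epha8 (0.88) and Robo1 (35.9 against 62.8 CPM, log2 difference -1.30) did so. Of the 34 other pathway genes, 32 were measured, with a median difference of -1.90. Of these 10 were lower, led by the kinase Ptk2 (-4.76), Chn1 (-3.77; under 2-fold by sums without its highest cells), Usp33, a deubiquitinase that acts on Robo1 (-3.75), and Sdc3, a heparan sulphate proteoglycan (-3.18). The 1 that was higher, Ngef (1.67), was named after its values were seen.

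MGE-derived 1 and MGE-derived 2 cells differed past 2-fold in Ntn3, Epha5 and Robo2. Of 32 members measured, 1 was higher past 2-fold in MGE-derived 1, against 1.87% of 13561 genes, and 2 were lower, against 11%; medians were -0.24 for the members and -0.41 for all genes. The authors' scaling gave 2 higher and 4 lower. Within the Htr3a line, among cells with at least 4000 genes, and without cells that carried markers of another class, 7 members passed. No share over all genes is given for these settings. Ntn3 was counted in 10 of 18 MGE-derived 1 cells (0 to 185 CPM, median 0.417) and 12 of 24 MGE-derived 2 cells (0 to 28.2 CPM, median 0.0403), at 25 and 4.14 CPM (log2 difference 1.33). Epha5 stood at 63.3 and 200.2 CPM (-1.98) and Robo2 at 97.4 and 227 CPM (-1.22). Robo2 fell short of 2-fold within the Htr3a line (-0.45) and among cells with at least 4000 genes (-0.19, 132.9 against 194.5 CPM). With a pseudocount of 10 CPM Robo2 (-0.91) and Ntn3 (0.83) both fell short. None of the other 34 pathway genes was higher past 2-fold and 9 were lower, led by Kalrn (-2.39), Nck1 (-1.84), Gpc1 (-1.60) and Rgmb (-1.56).

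Among MGE-derived cells, the 14 of the Lhx6 line were compared with the 28 of the Htr3a line. Of 33 members, 1 was higher past 2-fold, against 5.80% of 14026 genes, and 1 lower, against 13.2%; the authors' scaling gave 1 higher and 4 lower. Unc5d, a netrin receptor known from upper-layer neurons, was counted in 2 of 14 Lhx6-line and 11 of 28 Htr3a-line cells, at 1.65 and 57.3 CPM (log2 difference -1.93). Ephb1 stood at 51.9 and 6.25 CPM (1.02). It fell short of 2-fold without the highest cell of each group (0.72) and with a pseudocount of 10 CPM (0.76). Microglia marker RNA stood at 1297 CPM in the Htr3a-line cells (0 to 10870 CPM per cell) and at 0.541 CPM in the Lhx6-line cells (0 to 8.59 CPM, 4 of 8 markers, with Cx3cr1, P2ry12, Aif1 and Fcer1g at 0); without the cells that carried at least 3 of these markers Unc5d differed by -1.66. The other pathway genes gave 1 higher, Chn1 (2.05), and 5 lower, led by Srgap3 (-2.20), a Robo effector, and the netrin pathway ligases Trim9 (-2.04) and Trim67 (-1.76). With each gene's highest cells left out these counts were 2 and 11.

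Within the single label Glutamatergic 1, the driver line went with many guidance genes. The 10 Nex-line cells were higher than the 23 Htr3a-line cells in Unc5c, Robo2, Epha4, Epha8, Unc5d, Neo1, Efna5 and Robo1, and lower in Efnb3, Slit2, Unc5a, Dcc and Epha10. Of 29 members measured, 8 were higher past 2-fold, against 10.5% of 11117 genes, and 5 lower, against 15.7%. The members' median difference was -0.15 and that of all genes -0.22. On the authors' scaling 6 were higher and 9 lower, with no share over all genes beside them.

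Unc5c was counted in 9 of 10 Nex-line cells, from 0 to 677 CPM with a median of 188, and in 19 of 23 Htr3a-line cells, from 0 to 611 CPM with a median of 8.67. The ranges overlapped, and the Htr3a-line group held cells near 0 and cells about as high as the highest of the Nex line. Summed levels were 295 and 140.0 CPM, a log2 difference of 3.22 with an SD between cells of 2.80 and 3.86. The summed levels were under 2-fold apart after thinning (301 and 159 CPM), without cells that carried markers of another class (295 and 152 CPM) and on the authors' scaling (1416 and 749 of its units), with log2 differences of 3.27, 3.05 and 3.71. Unc5d was counted in 5 of 10 Nex-line cells, up to 134 CPM, and in 2 of 23 Htr3a-line cells, up to 0.547 CPM (log2 difference 2.10). Robo2 ran from 0 to 1011 CPM (median 125) against 0 to 704 CPM (median 0), at 231 and 63.7 CPM (2.59). Epha4 stood at 235 and 96.4 CPM (2.23; under 2-fold by sums on the authors' scaling, with a log2 difference of 2.38), and Epha8 at 89.1 CPM in 4 of 10 and 2.62 CPM in 5 of 23 cells (2.10).

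The members lower in the Nex line were at or near 0 in most of its cells. All but Unc5a also had no count in most of the 23 Htr3a-line cells. Slit2 was counted in 2 of 10 Nex-line and 8 of 23 Htr3a-line cells, Dcc in 1 and 5, and Epha10 in 1 and 8. Efnb3 was counted in 4 of 10 Nex-line cells but at no more than 1.91 CPM, and in 11 of 23 Htr3a-line cells up to 243 CPM (0.259 against 44.5 CPM, log2 difference -2.35). Slit2 stood at 0.504 against 38.4 CPM (-1.64), Unc5a at 5.22 against 51.7 CPM (-1.60) with a count in 1 of 10 and 13 of 23 cells, and Dcc, the attractive netrin receptor, at 0.129 against 32.4 CPM (-1.31). Ephb1 was counted in 2 of 10 and 17 of 23 cells (log2 difference -3.16), yet 1 Nex-line cell at 1794 CPM made the summed levels equal, 113 and 108 CPM, so it did not meet both conditions. Efna5 differed by 1.27. With a pseudocount of 10 CPM Unc5d (0.99), Robo1 (0.77) and Efna5 (0.68) fell short of 2-fold. So did Slit2 (-0.93), Unc5a (-0.78), Dcc (-0.74) and Epha10 (-0.60). Neo1 (1.97), Robo1 (1.17) and Epha10 (-1.29) were past 2-fold only with the highest cell of each group included: without it their summed levels were 111 against 69.5, 31.7 against 8.05 and 0 against 6.11 CPM, and the log2 differences 1.78, 0.78 and -0.96.

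**Figure D5:**
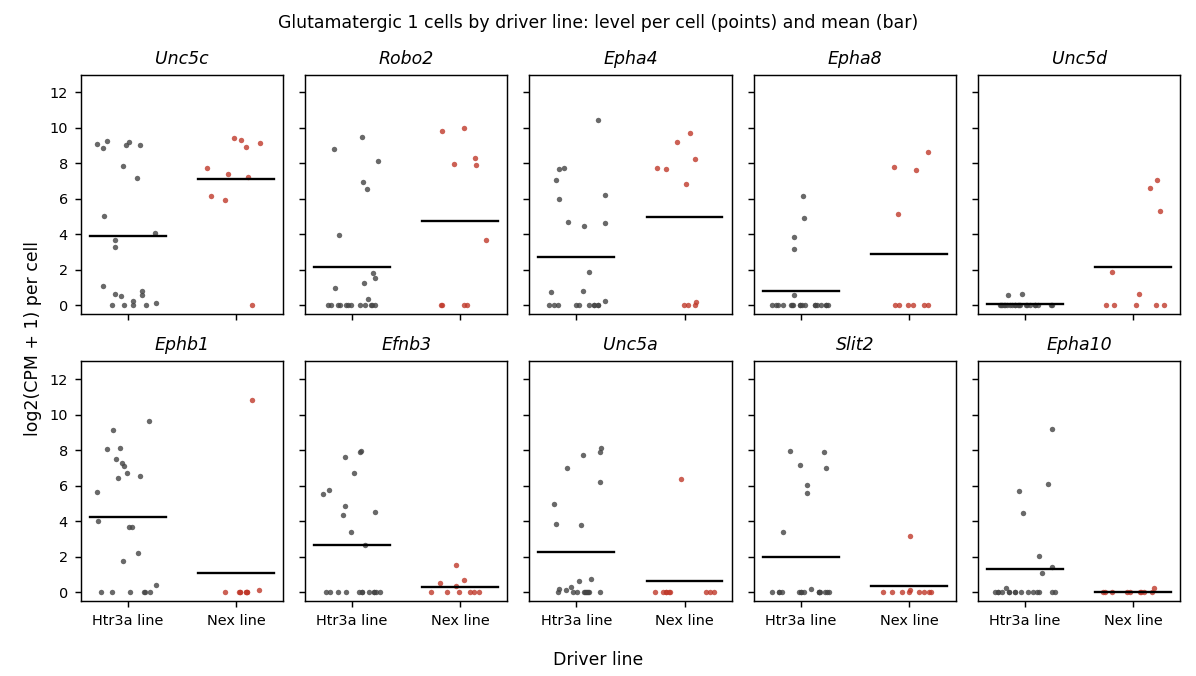
Level per Glutamatergic 1 cell, as log2(CPM + 1) on the vertical axis, of 10 members by driver line (23 Htr3a-line and 10 Nex-line cells); points are cells and bars means. The means of Unc5c, Robo2, Epha4, Epha8 and Unc5d are higher in the Nex line, those of Ephb1, Efnb3, Unc5a, Slit2 and Epha10 lower, and a single Nex-line cell holds the Ephb1 point near the top.

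Of the 34 other pathway genes, 31 were measured in this comparison, 5 of them higher and 5 lower past 2-fold with a median difference of -0.25; without each gene's highest cells 3 were higher, Nell2 no longer among them, and 9 lower. Nell2 stood at 600 against 252 CPM (log2 difference 2.48), Kalrn at 270.0 against 61.3 CPM (2.35), Ngef at 32.9 against 87.1 CPM (-2.27) and Usp33 at 229 against 93.2 CPM (1.87). Genes per cell were a median of 4312.5 in the Nex line and 5184 in the Htr3a line. GABAergic markers stood at 0.0129 CPM in the Nex-line cells (1 of 6 markers, with Gad2, Slc32a1, Dlx1, Dlx2 and Dlx5 at 0; at most 0.097 CPM per cell) and at 103 CPM in the Htr3a-line cells (6 of 6, 0 to 1279 CPM), and glutamatergic markers at 1692 and 827 CPM. Microglia markers stood at 139 CPM in the Nex-line cells (5 of 8, with Cx3cr1, C1qa and Tyrobp at 0) and 296 CPM in the Htr3a-line cells, and red blood cell markers at 3.61 and 188 CPM; their part in these differences was not tested, beyond Unc5c (3.37), Robo2 (2.45) and Efnb3 (-2.33) without the cells that carried at least 3 microglia markers.

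Other members are given by their levels and counts. The ephrin-B ligand Efnb2 was counted in 95 of 148 cells and stood highest in CGE-derived cells (106 CPM, cells from 0 to 307) and lowest in the GABAergic label (2.85 CPM). Ephb2 was counted in 87 cells, at 7.07 to 36.6 CPM across the typed labels. Epha3 stood at 70.7 CPM in 9 of 12 Cajal Retzius cells and Dcc at 45.5 CPM in 7 of 13 Glutamatergic 2 cells, the first without a 2-fold difference of summed counts from glutamatergic cells (46.6 CPM). Netrin transcripts were scarce in these neurons: Ntn1 was counted in 23 of 148 cells at 1.42 CPM, Ntn5 in 10 and Ntng1 in 12, while Ntn3 was counted in 65 at 10.4 CPM. Ephb3, Robo3, Efna1, Efna4, Efnb1 and Epha1 had a count in 11 to 39 cells.

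The 22 Undefined cells held a broad mixture of members. Epha5 was counted in 19 of 22 (477 CPM), Neo1 and Ephb2 in 18 (87.0 and 34.6 CPM), and Epha7 and Robo1 in 17 (240.1 and 98.1 CPM). Both the glutamatergic-high Ephb1 (16 of 22, 104 CPM) and the Cajal Retzius-high Ephb6 (12 of 22, 83.6 CPM) were present. An Unc5 receptor was counted in 20 of these cells, in 44 of 46 glutamatergic cells, in 11 of 12 Cajal Retzius cells and in 26 of 42 MGE-derived cells.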

How the data were processed

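RNA of single cells aspirated by patch pipette was sequenced; the submitters' processing notes name STAR, featureCounts, Trimmomatic and build GRCm38. The authors deposited whole-number counts by Ensembl identifier (22880 rows, 22570 given a symbol from GENCODE M21), which were used here, and a normalized signal table of 22800 genes, whose scaling is not given in the sources used here; recovered whole reads from it (100% whole within 0.01 reads) gave Ntn3, which the identifier table lists without a symbol. The deposited table by symbol was not used, because it is held only in part.

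Groups follow the submitters' labels, and 8 comparisons were made without tests, since no label names an animal. Each cell's counts were divided by its total (CPM), with a pseudocount of 1 CPM for log2 values. Exact Poisson 95% intervals of levels cover counting error of reads only; Clopper-Pearson 95% intervals of shares treat cells as independent draws. Exon lengths came from GENCODE M21. The comparison step was run on simulated counts with known folds of level. Both groups there had the same share of cells with a count, so differences in that share were not simulated. No error rate of the calls is given here. Tools were Python 3.11.15, numpy 2.4.6, pandas 2.3.3, scipy 1.17.1 and matplotlib 3.10.9. The named members were those past both conditions in a comparison and the highest member of each role; other pathway genes were named up to 4 per comparison by size. The members, gene lists, motifs and comparisons were chosen with earlier results of these data known. A pair of alternatives, without cells that carried microglia markers and without cells that carried markers of another class, were added after seeing the data, as were the GC box and CCAAT box searches.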

Additional observations from a re-analysis of the deposited data

Results flagged for a closer look

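In the GABAergic label, which holds 4 cells, 1 cell stood far from the other 3 for 2 of the 13 members looked at, those counted in at least 2 of the 4 cells. The usual rate of about 1 group in 20 marked by chance holds for roughly normal values and does not apply to levels that are mostly 0. Epha7 stood at 684 CPM in 1 cell and at 0, 0 and 0.715 CPM in the other 3, and the gap to the nearest cell took up 0.917 of the range on the log2 scale. Ephb3 stood at 6.44 CPM in another cell and at 0, 0 and 0.0838 CPM in the rest, a gap of 0.960 of the range. Both cells came from the Htr3a line.

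Outside the comparisons, 23 of 40 members looked at had more than 3 counts over the 14 cells that failed quality control, whose totals ran from 122 to 13277123 counts.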

How the results depend on the processing

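All 63 called member differences kept their direction in all 678 alternative values, which was partly fixed in advance. The alternatives by log2 difference alone, by summed counts alone and without the filter on cells with a count leave the difference itself unchanged. The others reuse these cells, for members picked for a difference of at least 1 in size. Of the 63 calls, 32 were kept with a pseudocount of 10 CPM and 57 without the cell of highest level. The number past 2-fold moved over 1.5 times in 30 cases. The share of all genes past 2-fold is not given for these alternatives, so the numbers below do not set members against other genes. With a pseudocount of 10 CPM, 5 members were past 2-fold between the GABAergic class and glutamatergic cells, 8 between Cajal Retzius and glutamatergic, 1 for VZ-derived, 4 between the Glutamatergic labels, 1 between the MGE-derived labels, 1 between the lines in MGE-derived cells and 6 between those in Glutamatergic 1. By summed counts alone these numbers were 16, 26, 19, 20, 17, 20 and 22, and 18 for MGE-derived against CGE-derived. By the log2 difference alone they were 10 for VZ-derived, 19 for the Glutamatergic labels, and 5 each for the MGE-derived labels and the lines in MGE-derived cells. The authors' scaling gave 14 for MGE-derived against CGE-derived, 6 for the MGE-derived labels and 5 for the lines in MGE-derived cells. Cells with at least 4000 genes gave 13 for the GABAergic class, 12 for VZ-derived and 7 for the MGE-derived labels. The Htr3a line alone gave 10 for VZ-derived (3 of the 6 members kept) and 7 for the MGE-derived labels. For the MGE-derived labels, 5 were past 2-fold without the highest cell of each group, 5 without cells with microglia markers, and 7 without cells that carried markers of another class. The cause was not tested. The number of members measured in a typed label, 37, ran from 31 to 37 under its alternatives. The authors' scaling moved the median difference of all genes by over 0.1 in 6 of 8 comparisons: from 0.25 to 0.39 for MGE-derived against CGE-derived, 0.54 to 0.73 for Cajal Retzius, -1.05 to -1.36 for the Glutamatergic labels, -0.41 to -0.60 for the MGE-derived labels, and -0.30 to -0.53 and -0.22 to -0.39 for the lines in MGE-derived and Glutamatergic 1 cells. Thinning each cell to 1710224 counts left the number of cells with a count unchanged in 218 of 369 pairs of member and label and lowered it by at most 5. No paired analysis was possible because no label names an animal or a litter that could pair cells.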
